A study of Homo sapiens and Mus musculus with 20 samples.

Results

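The genes described here encode lysosomal enzymes and membrane proteins: GLB1, HEXA, CTSB, CTSK, CTSL, CTSZ, CTSD, LAMP1 and LAMP2. These 9 genes were chosen by symbol, with GLB1 included because it encodes the beta-galactosidase that is stained in senescent cells. All 9 were listed in each of 3 RNA sequencing experiments in IMR90 cells, among 17554 genes listed in at least 1 of them. The study examined histone lactylation, a modification of histone lysines derived from lactate, in relation to cellular senescence. IMR90 is a line of human lung fibroblasts with a limited life span in culture, and all 12 libraries were labelled as wild type (WT). A485 blocks the catalytic activity of the histone acetyltransferase p300, and libraries from A485-treated cells were compared with the untreated group Control2. MS-275 blocks the class I enzymes that remove histone acetylation, and libraries from these cells were compared with the untreated group Control3. Cells given pyruvate were compared with the untreated group Control6, and the study reports giving pyruvate to IMR90 cells that were senescent. Each group held 2 libraries, and the labels gave no dose, duration of treatment or passage. Nothing in the labels says that the 2 libraries of a group came from separate cultures, so the p-values below measure the spread between libraries, which may be technical. All the libraries came from a single cell line, so no donor-to-donor spread was measured.

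Lysosomes are acidic organelles in which hydrolases break down material delivered by endocytosis and autophagy. Soluble hydrolases are tagged with mannose 6-phosphate in the Golgi and carried to the lysosome by receptors, while heavily glycosylated membrane proteins line its inner face. The transcription factor TFEB and its relatives MITF, TFE3 and TFEC activate many lysosomal genes through a short sequence with the core CACGTG, and senescent fibroblasts are known for an enlarged lysosomal compartment with high beta-galactosidase activity.

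Promoter sequences were available for 5 of the 9 genes: GLB1, CTSL, CTSD, LAMP1 and CTSZ (RefSeq, GRCh38.p14). Each sequence runs from 250 bases before the annotated transcription start to 50 bases after it. Sequences for LAMP1, CTSD and CTSZ are shown because they hold many, 1 and no copies of the core. The core CACGTG, which reads the same on both strands, is in capitals:
LAMP1, chr13:113296989-113297288, plus strand: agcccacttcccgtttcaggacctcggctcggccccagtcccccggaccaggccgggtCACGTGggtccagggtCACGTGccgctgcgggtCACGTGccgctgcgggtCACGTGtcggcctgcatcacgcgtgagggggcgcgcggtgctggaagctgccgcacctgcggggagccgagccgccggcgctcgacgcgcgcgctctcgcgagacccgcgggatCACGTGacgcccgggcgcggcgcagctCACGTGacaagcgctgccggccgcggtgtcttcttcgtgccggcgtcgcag
CTSD, chr11:1763878-1764177, minus strand: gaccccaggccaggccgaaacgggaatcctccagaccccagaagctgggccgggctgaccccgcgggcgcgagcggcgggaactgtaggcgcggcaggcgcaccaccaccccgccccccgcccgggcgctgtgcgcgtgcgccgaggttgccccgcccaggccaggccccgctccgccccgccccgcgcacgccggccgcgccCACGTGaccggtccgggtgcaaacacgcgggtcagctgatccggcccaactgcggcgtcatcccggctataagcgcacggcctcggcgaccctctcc
CTSZ, chr20:59007205-59007504, minus strand: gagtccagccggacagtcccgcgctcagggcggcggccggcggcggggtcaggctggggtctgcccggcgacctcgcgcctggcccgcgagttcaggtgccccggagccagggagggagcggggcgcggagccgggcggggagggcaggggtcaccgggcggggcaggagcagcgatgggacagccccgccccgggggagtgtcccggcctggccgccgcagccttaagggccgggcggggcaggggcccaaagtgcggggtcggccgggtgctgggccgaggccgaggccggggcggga
The LAMP1 sequence held 6 copies of CACGTG, which began 192, 176, 159, 142, 28 and 1 bases before the start. The CTSD sequence held 1 copy, beginning 47 bases before the start. The CTSL, CTSZ and GLB1 sequences held 0 copies. For GLB1 the RefSeq start lay 324 bases downstream of the GENCODE canonical start, whereas the other 4 starts were the same in both annotations. Among all 27305 promoters of this length, 2030 (7.43%) held at least 1 copy, and 1 promoter held 6 or more. Of 91 promoters from the other lysosomal genes described below, 21 (23.1%) held at least 1 copy. These matches describe letters in the sequence and say nothing of binding in these cells.

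GLB1 (chromosome 3, 32996609 to 33097202, minus strand, in hg38) encodes lysosomal beta-galactosidase, and HEXA (chromosome 15, 72340924 to 72376420, minus strand) encodes the alpha subunit of beta-hexosaminidase. CTSB (chromosome 8, 11842524 to 11869533, minus strand), CTSK (chromosome 1, 150794880 to 150809577, minus strand), CTSL (chromosome 9, 87724051 to 87731469, plus strand) and CTSZ (chromosome 20, 58985686 to 59008238, minus strand) encode cysteine cathepsins. CTSD (chromosome 11, 1752752 to 1764573, minus strand) encodes an aspartic cathepsin. LAMP1 (chromosome 13, 113297239 to 113323672, plus strand) and LAMP2 (chromosome X, 120426148 to 120469365, minus strand) encode the abundant lysosome-associated membrane glycoproteins. The coordinates are those of the GENCODE gene models, and the values below count reads over whole genes, so isoforms such as those of LAMP2 were not separated. TMPPE lies within the GLB1 gene on the same strand, and its values were between 34.4 and 187 normalized counts in the 12 libraries, against 2265 or more for GLB1. HEXA-AS1, which overlaps HEXA on the other strand, was listed only in the MS-275 experiment, at 5.98 to 16.8 normalized counts. The strand setting of the counting is not known, so reads of HEXA and HEXA-AS1 cannot be told apart. The protein-coding gene NELFCD overlaps CTSZ on the other strand. Protein-coding models without a gene symbol overlap CTSD and HEXA on the same strand. These further genes were not listed under those names in any experiment, so reads shared with them could not be examined. CTSV, the close relative of CTSL with which reads could be shared, was at 20.2 to 42.1 normalized counts in the A485 and MS-275 experiments and was not listed in the pyruvate experiment.

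Depth was 24179065 to 46971227 reads over the listed genes per library, as recovered from the smallest steps in their values. The number of reads for a gene described here ranged from 351 to 180097 per library. Mitochondrial transcripts took 2.77 to 6.90% of the normalized counts. The fibroblast markers COL1A1, COL1A2, COL3A1, DCN, LUM, THY1, PDGFRB and VIM were all listed in every experiment. Their summed normalized count was 1357445 to 1511442 in Control2 and 428267 to 502039 with A485, 769700 to 1255593 in Control3 and 632088 to 1119843 with MS-275, and 880751 to 896665 in Control6 and 775087 to 778292 with pyruvate. CDH1 of epithelial cells, PECAM1 and CDH5 of endothelial cells, and PTPRC, AIF1, CD163 and ITGAM of leukocytes were not listed in any experiment. Of 5 endothelial markers, 3 were listed in the A485 and MS-275 experiments and 2 in the pyruvate experiment. Their sum was 508 to 1289 in Control2 and 127 to 189 with A485, 781 to 1391 in Control3 and 588 to 678 with MS-275, and 358 to 481 in Control6 and 1448 to 1469 with pyruvate. Of 5 epithelial markers, 4 were listed in the A485 and MS-275 experiments and 2 in the pyruvate experiment. Their sum was 2718 to 3089 in Control2 and 1265 to 1608 with A485, 1942 to 3595 in Control3 and 1363 to 2610 with MS-275, and 1894 to 1906 in Control6 and 1588 to 1683 with pyruvate. Of 7 leukocyte markers, 3 were listed in the A485 experiment, 2 in the MS-275 experiment and 0 in the pyruvate experiment. Where listed, they summed to at most 55.2 in any library. The part of these marker differences in the results below was not tested. In such bulk libraries, fewer cells of a type and less RNA per cell cannot be told apart.

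**Figure D1:**
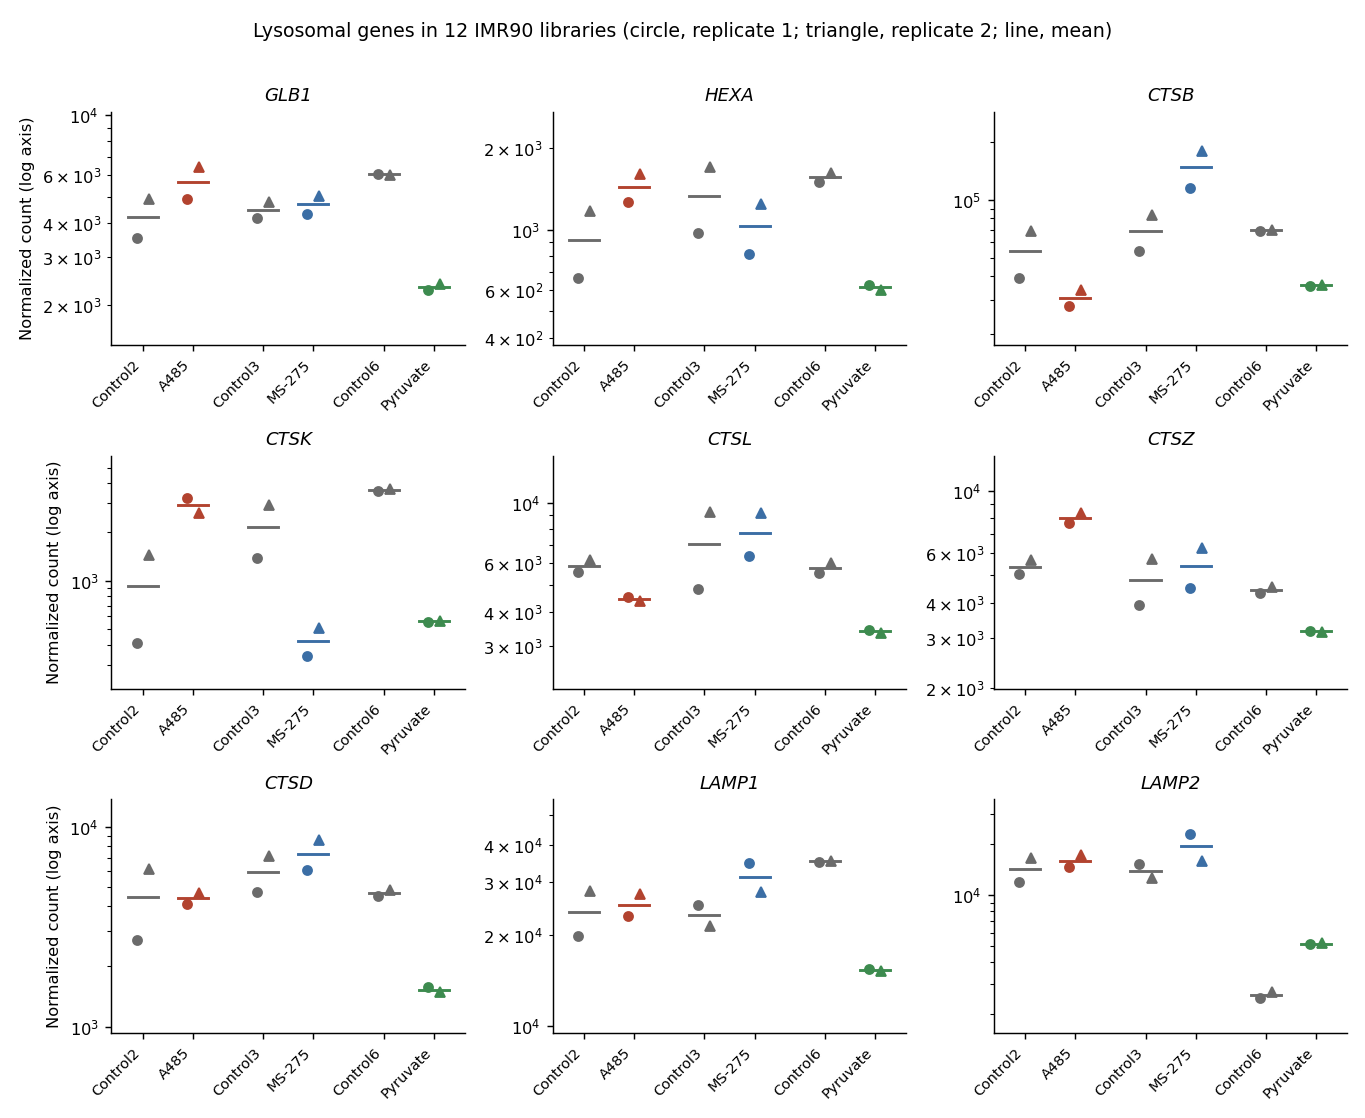
Normalized count of each gene (log axis) in the 2 libraries of each of 6 groups, with circles for replicate 1, triangles for replicate 2 and a line at the group mean. The 3 experiments were normalized separately, so heights are to be compared within an experiment. GLB1 lies at 2265 and 2380 with pyruvate, below 6089 and 6022 in Control6. CTSK lies above the controls of its own experiment with A485, and below them with MS-275 and with pyruvate.

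The untreated and treated groups were first described by level, using normalized counts per kilobase of the canonical transcript so that genes could be compared with each other. CTSB had the highest mean in 5 of the 6 groups, from 9586 ± 89.9 (SD, n = 2) normalized counts per kilobase with pyruvate to 39545 ± 12067 (SD, n = 2) with MS-275. In A485 libraries LAMP1 ranked first at 9351 ± 1119 (SD, n = 2) and CTSB second at 8276 ± 1143 (SD, n = 2), but their ranges overlapped. HEXA was lowest in every group, between 128 ± 4.10 (SD, n = 2) with pyruvate and 325 ± 16.4 (SD, n = 2) in Control6. CTSL, CTSZ, CTSD, LAMP2, GLB1 and CTSK lay between them, and in Control3 the ranges of CTSL, CTSZ, CTSD and GLB1 each overlapped that of the next gene in the order. CTSB reads made up 44.0 to 56.1% of the reads of the 9 genes in the untreated libraries, 30.5 to 31.9% with A485, 59.1 to 70.7% with MS-275 and 52.5 to 53.0% with pyruvate.

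LAMP2 differed between the untreated groups of separate experiments. It stood at 2171 ± 503 normalized counts per kilobase in Control2 and 2114 ± 278 in Control3 (SD, n = 2 each), but at 394 ± 24.4 in Control6 (SD, n = 2). In reads per 1000000 reads of the library (RPM), LAMP2 was 274.5 and 344 in the Control2 libraries, 360 and 302 in the Control3 libraries and 83.2 and 91.4 in the Control6 libraries. LAMP2 in Control6 thus lay below every other untreated library, with no test because the 3 tables were normalized separately.

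The A485 experiment addressed which genes change when an enzyme that adds histone lactylation is inhibited, and the lysosomal genes were read from it. None of the 9 genes passed an adjusted p of 0.05 (limma with Benjamini-Hochberg adjustment over 16084 genes), where 12.6% of all genes did. With the replicate number as a block, 4 of the 9 did (CTSK, CTSZ, HEXA and CTSB), against 23.9% of all genes, and CTSK was called. Calls below also require an absolute log2 fold change above 1, which 10.4% of all genes met (3.31% higher and 7.06% lower) and 0 of the 9. At an unadjusted p under 0.05 the count was 3 of 9 (CTSK, CTSZ and CTSL), against 30.8% of all genes. The treated and control libraries did not overlap for 6 of 9 genes, against 61.0% of all genes. Within replicate numbers, treated minus control had the same sign for 7 of 9, against 75.5% of all genes. Replicate 2 was above replicate 1 for all 9 genes in Control2 and for 7 of 9 with A485.

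GLB1 stood at 3525 and 4887 normalized counts in Control2 and at 4928 and 6420 with A485. The groups adjoined without overlapping, and the log2 fold change was 0.44 (SE 0.23, limma adjusted p = 0.259). HEXA was 666 and 1165 in Control2 and 1259 and 1601 with A485, a log2 fold change of 0.69 (SE 0.31, limma adjusted p = 0.196). The higher Control2 library lay close below the lower A485 library for both glycosidases.

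CTSK, a collagen-degrading cathepsin best known from osteoclasts, was 413 and 1431 in Control2 and 3241 and 2628 with A485. Both A485 libraries were above both controls, and the controls themselves lay far apart. The log2 fold change was 1.92 (95% interval 0.58 to 3.26, limma adjusted p = 0.0725), and it ranged from 1.03 without Control2 replicate 1 to 2.82 without Control2 replicate 2, where the adjusted p was 0.0330. CTSK was also past the threshold with DESeq2 on the recovered reads (log2 fold change 1.67, adjusted p = 0.00719) and was not with edgeR (1.71, adjusted p = 0.0842).

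CTSB, the most abundant cathepsin transcript, was 39004 and 69039 in Control2 and 27878 and 33912 with A485. CTSL was 5580 and 6194 in Control2 and 4539 and 4390 with A485. For both genes the A485 libraries lay below both controls, with log2 fold changes of -0.76 for CTSB (SE 0.32, limma adjusted p = 0.172) and -0.40 for CTSL (SE 0.16, limma adjusted p = 0.155). CTSZ, a carboxypeptidase, was 5050 and 5652 in Control2 and 7648 and 8316 with A485, the reverse order. Its log2 fold change was 0.58 (95% interval 0.18 to 0.98, limma adjusted p = 0.0710).

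CTSD was 2701 and 6152 in Control2 and 4115 and 4641 with A485, so the treated libraries fell between the controls. LAMP1 was 19810 and 28091 in Control2 and 23118 and 27394 with A485. LAMP2 was 11860 and 16511 in Control2 and 14669 and 17130 with A485. The groups overlapped for all 3 genes, with log2 fold changes of 0.10 for CTSD (95% interval -0.82 to 1.02), 0.09 for LAMP1 (-0.49 to 0.68) and 0.18 for LAMP2 (-0.37 to 0.73).

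The median log2 fold change of the 9 genes with A485 was 0.18, against 0.01 over all genes tested. These values rest on the authors' size factors, under which 532 genes were called higher and 1135 lower. Scaling to equal library totals gave 1677 higher and 901 lower and shifted the all-gene median to 0.40. CTSK then stood at 2.32, HEXA at 1.08, CTSZ at 0.97 and GLB1 at 0.83, each with an adjusted p under 0.05 (limma, 0.0188, 0.0312, 0.0101 and 0.0266). CTSB stood at -0.36 with equal totals and at 0.02 with quantile normalization, so its direction was not kept.

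Other genes of the lysosome were described in 8 lists of 127 genes, of which 112 were tested in the A485 experiment. Among them 8 were called higher and 2 lower, 8.93% against 10.4% of all genes. By direction, 3.31% of all genes were called higher and 7.06% lower. The median log2 fold change of the 112 genes was 0.28. The median was 0.48 for 32 soluble hydrolases and cofactors, 0.50 for 16 V-ATPase subunits, which acidify the lysosome, and 0.28 for 19 other membrane proteins. It was 0.14 for 17 genes of delivery to the lysosome, 0.38 for 7 other cathepsins and legumain, 0.07 for 3 protease inhibitors and 0.02 for 17 transcriptional and nutrient regulators. GLB1L, the only beta-galactosidase relative tested, stood at 0.15.

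FUCA1, the lysosomal alpha-fucosidase, rose from 412 and 422 normalized counts in Control2 to 2139 and 2276 with A485 (log2 fold change 2.40, limma adjusted p = 0.00239). GAA, the acid alpha-glucosidase, rose by 1.34 on the log2 scale and ACP2, an acid phosphatase, by 1.19 (limma adjusted p = 0.0386 and 0.0119). The membrane genes OSTM1, a partner of the chloride transporter CLC-7, MCOLN1, a calcium channel, and TMEM192 rose by 1.44, 1.14 and 1.001. ATP6V0E2, a subunit of the proton pump, rose by 1.66 and the sorting receptor SORT1 by 1.13. CTSC, a dipeptidyl peptidase that activates granule proteases, fell from 12222 and 17485 to 3622 and 3208 (log2 fold change -2.10, limma adjusted p = 0.00480). MITF, a relative of TFEB, fell by 1.24 on the log2 scale (limma adjusted p = 0.0219).

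The MS-275 experiment addressed enzymes that remove the modification. By immunoblot, however, the study reports less histone lactylation with both A485 and MS-275. It reports that histone acetylation fell with A485 and rose with MS-275. Without regard to replicate number, no gene at all passed an adjusted p of 0.05. The called share was 0.0% of 15883 genes by limma, while 1730 genes (10.9%) had an unadjusted p under 0.05. Among the 9 genes 2 did so, CTSB and CTSK. The groups did not overlap for 4 of 9 genes, CTSB, CTSK, LAMP1 and LAMP2, against 38.9% of all genes. Within replicate numbers, treated minus control had the same sign for 8 of 9 genes, all but CTSL, against 79.0% of all genes. It was positive in both numbers for 6 of 9, against 38.6% of all genes, and negative in both for HEXA and CTSK. The labels do not say that equal numbers mark a shared culture, but a fit with the number as a block changed the calls. It gave 39.3% of all genes, and 6 of the 9, an adjusted p under 0.05, and called 13.7% of all genes, with CTSB higher (limma adjusted p = 1.01e-06) and CTSK lower (limma adjusted p = 4.90e-09).

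CTSB was 54377 and 83858 in Control3 and 115767 and 179473 with MS-275. Both MS-275 libraries were above both controls, by 2.13-fold within replicate number 1 and 2.14-fold within number 2. The log2 fold change was 1.09 (95% interval 0.06 to 2.13, limma adjusted p = 0.432 without the block). CTSK was 1374 and 2919 in Control3 and 340 and 506 with MS-275, which is 0.247 and 0.173 of the control of the same number. The log2 fold change of CTSK was -2.27 (95% interval -3.56 to -0.97, limma adjusted p = 0.257 without the block), and without Control3 replicate 1 it was -2.81 with an adjusted p of 0.0102.

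LAMP1 was 25162 and 21525 in Control3 and 34839 and 27734 with MS-275. LAMP2 was 15100 and 12535 in Control3 and 22790 and 15788 with MS-275. Both membrane genes were higher with MS-275 in each number and without overlap, with log2 fold changes of 0.42 (95% interval -0.38 to 1.21) for LAMP1 and 0.46 (-0.42 to 1.34) for LAMP2. In both groups replicate 1 was above replicate 2 for these genes, and replicate 2 was above replicate 1 for the other 7.

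GLB1 was 4180 and 4787 in Control3 and 4316 and 5053 with MS-275, with interleaved libraries and a log2 fold change of 0.06 (95% interval -0.72 to 0.85). HEXA was 970 and 1691 in Control3 and 814 and 1245 with MS-275 (log2 fold change -0.35, 95% interval -1.495 to 0.80). The ratio within each number was 1.03 and 1.06 for GLB1 and 0.840 and 0.736 for HEXA. The interval for GLB1 included both a decrease and an increase of more than 1.5-fold.

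CTSL was 4841 and 9256 in Control3 and 6363 and 9122 with MS-275, and the difference changed sign between the numbers. CTSZ was 3929 and 5735 in Control3 and 4530 and 6256 with MS-275. CTSD was 4695 and 7168 in Control3 and 6079 and 8546 with MS-275. All 3 overlapped between the groups, and their log2 fold changes were 0.19, 0.17 and 0.31 (SE 0.45, 0.37 and 0.38).

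The median log2 fold change of the 9 genes with MS-275 was 0.19, against -0.01 over all genes tested, and scaling to equal totals shifted the latter to -0.15. Of 113 other lysosomal genes tested, 0 were called by limma, 79 had a positive and 34 a negative log2 fold change, and the median was 0.25. The median was 0.54 for the other membrane proteins, 0.43 for V-ATPase subunits, 0.29 for soluble hydrolases, 0.29 for other cathepsins and legumain, 0.23 for protease inhibitors, 0.17 for delivery genes and 0.15 for regulators. Among the genes with the smallest p in their list, the sorting receptor SORT1 was 5514 and 4217 in Control3 and 17482 and 17924 with MS-275 (log2 fold change 1.88, limma adjusted p = 0.187). LIPA, the acid lipase, was 4318 and 4486 in Control3 and 12789 and 15587 with MS-275 (log2 fold change 1.68, limma adjusted p = 0.209). LGMN, the asparaginyl protease legumain, stood at 1.397, GM2A, a cofactor of beta-hexosaminidase, at 1.18, SLC17A5, the sialic acid exporter, at 1.31 and MCOLN1 at 1.09. CTSS stood at -2.09, with 90.1 and 233 normalized counts in Control3 and 32.0 and 34.9 with MS-275. The genes named from the remaining lists were ATP6V0A1 at 1.03 and ATP6V0E2 at 0.72, NAGPA at -0.67, TFEC at 2.05, RRAGB at -0.52, CSTA at 1.71, CST3 at -0.36 and GLB1L at 0.43, none of which passed.

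Pyruvate against Control6 gave changes in all 9 genes, 8 lower and LAMP2 higher. All 9 passed an adjusted p of 0.05, but so did 80.9% of the 12013 genes tested (40.2% lower and 40.6% higher), and the groups did not overlap for any of the 9 or for 90.5% of all genes. Under the call rule 5 of 9 were lower (CTSK, CTSD, GLB1, HEXA and LAMP1), against 23.1% of all genes, and 1 was higher (LAMP2), against 31.0% (54.1% of all genes in either direction). The median log2 fold change of the 9 genes was -1.20, against -0.01 over all genes.

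GLB1 was 6089 and 6022 in Control6 and 2265 and 2380 with pyruvate, a 2.61-fold decrease of the mean. The libraries of each group lay within a few percent of each other, and the log2 fold change was -1.38 (95% interval -1.53 to -1.24, limma adjusted p = 5.54e-09). In RPM, GLB1 was 205.6 and 204.7 in Control6 and 95.3 and 99.9 with pyruvate. It was 81.6 and 101.9 RPM in Control2 and 99.8 and 115.3 RPM in Control3, with no test across experiments. HEXA was 1498 and 1609 in Control6 and 627 and 599 with pyruvate (log2 fold change -1.34, limma adjusted p = 1.68e-07).

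CTSK was 3607 and 3705 in Control6 and 555 and 564 with pyruvate, a 6.53-fold decrease of the mean. Its log2 fold change of -2.70 (95% interval -2.89 to -2.52, limma adjusted p = 2.95e-10) was the largest in size among the 9 genes in this experiment. CTSD was 4500 and 4813 in Control6 and 1576 and 1488 with pyruvate (log2 fold change -1.60, limma adjusted p = 4.71e-09). CTSB was 69162 and 69996 in Control6 and 35546 and 36020 with pyruvate, a log2 fold change of -0.96 that stayed inside the limit of 1. CTSL was 5521 and 6020 in Control6 and 3437 and 3346 with pyruvate (log2 fold change -0.77). CTSZ was 4340 and 4537 in Control6 and 3177 and 3159 with pyruvate (log2 fold change -0.49, limma adjusted p = 3.09e-05). All 5 of these cathepsins were thus lower in both pyruvate libraries, by amounts from 1.401-fold for CTSZ to 6.53-fold for CTSK.

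The membrane proteins moved in opposite directions. LAMP1 was 35027 and 35321 in Control6 and 15465 and 15161 with pyruvate (log2 fold change -1.20, limma adjusted p = 1.96e-09). LAMP2 was 2464 and 2690 in Control6 and 5120 and 5209 with pyruvate (log2 fold change 1.004, limma adjusted p = 1.17e-07). The LAMP2 value lay just past the limit of 1 and fell to 0.94 without Control6 replicate 1 and to 0.99 without Pyruvate replicate 2.

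**Figure D2:**
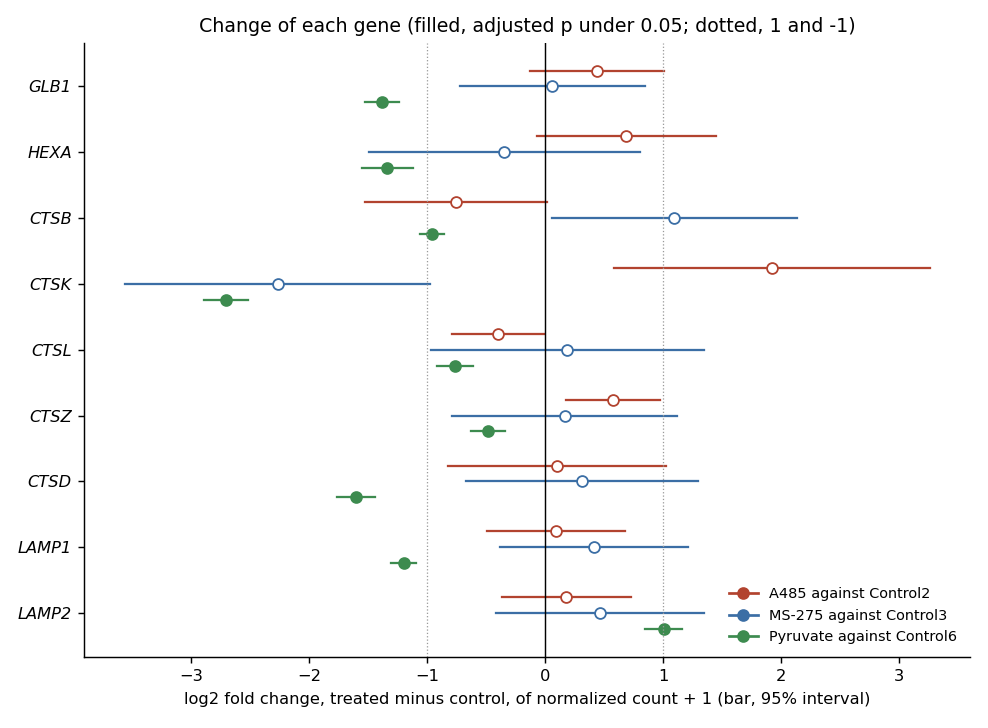
log2 fold change of each gene (treated minus control, normalized count + 1) in the 3 comparisons, with 95% intervals and filled symbols where the limma adjusted p was under 0.05. The intervals are wide with A485 and MS-275 and narrow with pyruvate, where 8 genes lie below 0 and LAMP2 lies at 1.004.

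In the pyruvate experiment the changes of all genes followed the GC content of their transcripts. Over 11888 genes, Spearman's rho between GC content and log2 fold change was -0.72, against -0.11 with A485 and -0.02 with MS-275 (across genes, which are not independent replicates). LAMP2, with 36.0% GC, had the lowest GC content of the 9 genes, and CTSD, with 63.6%, the highest. The 414 genes within 1 percentage point of LAMP2 in GC content had a median log2 fold change of 1.69, and LAMP2 itself stood at 1.004. The 452 genes near CTSD had a median of -1.24, and CTSD stood at -1.60. The 747 genes near CTSZ, with 58.2% GC, had a median of -0.98, and CTSZ stood at -0.49. CTSK differed from this pattern, since the 908 genes near its 46.0% GC had a median of 0.56 and 0.110% of them lay lower than CTSK. The part of GC content in the changes of these 9 genes was not tested.

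With a smooth trend on transcript length and GC content removed from each library, rho in the pyruvate experiment was -0.02. CTSK then stood at -3.003 and HEXA at -1.27, and these were the 2 of 9 genes still called, where 28.9% of all genes were. GLB1 stood at -0.88, CTSB at -0.61, CTSL at -0.51, LAMP1 at -0.36 and CTSD at -0.35, each lower with an adjusted p under 0.05 (for CTSD, limma adjusted p = 0.000417), as it was for 66.4% of all genes in either direction. LAMP2 changed sign to -0.84 and CTSZ changed sign to 0.56 (limma adjusted p = 1.87e-07 and 2.78e-06). The directions of GLB1, HEXA, CTSB, CTSK, CTSL, CTSD and LAMP1 were thus the same with and without the trend, and those of LAMP2 and CTSZ were not. Scaling to equal library totals shifted the all-gene median to 0.30 and the calls from 3726 higher and 2777 lower to 4402 and 1741. No gene of the 9 changed sign under it, and LAMP1 at -0.89 was no longer called.

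**Figure D3:**
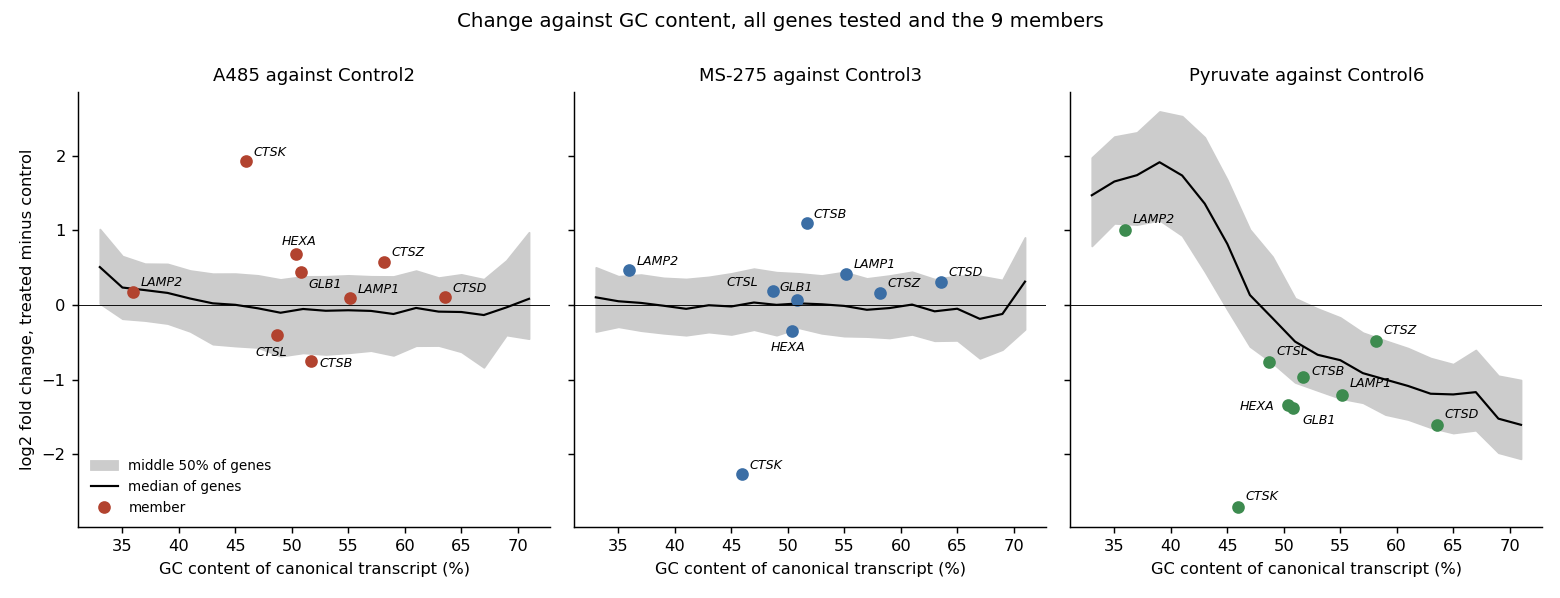
log2 fold change against the GC content of the canonical transcript in the 3 comparisons, with the median (line) and middle 50% (grey) of all genes in bins of GC content and the 9 genes as points. With pyruvate the median falls from above 1 at low GC content to below -1 at high GC content, LAMP2 lies below the median at the left, and CTSK lies far below it.

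The untreated libraries of this experiment differed in the same respect from those of the others. Over 11016 genes at 1 RPM or more in both groups, rho between GC content and the log2 ratio of Control6 to Control2 was 0.72, and over 11008 such genes it was 0.71 against Control3. The corresponding values for the pyruvate libraries were 0.24 and 0.18, and for Control3 against Control2 the value was 0.23. LAMP2 in RPM was 3.54 times as high in Control2 and 3.79 times as high in Control3 as in Control6, and 1.43 and 1.53 times as high as with pyruvate. These relations across separately normalized tables were examined after the LAMP2 values had been seen and are descriptions only.

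Of 106 other lysosomal genes tested with pyruvate, 48 were called lower and 18 higher, 62.3% against 54.1% of all genes. By direction, 23.1% of all genes were called lower and 31.0% higher. The median log2 fold change of the 106 genes was -0.83. With the trend removed, 24 were called lower and 4 higher, and the median was -0.61. Among all 11888 genes 28.9% were then called, 1661 lower and 1779 higher. Of 31 soluble hydrolases and cofactors, 16 were called lower and 2 higher (median -1.05). Of 17 delivery genes 9 were lower and 4 higher (median -1.20), of 17 membrane proteins 7 and 2 (median -0.83), of 16 V-ATPase subunits 6 and 5 (median -0.40), of 16 regulators 4 and 5 (median -0.40), and of 6 other cathepsins and legumain 3 and 0 (median -0.41). These list values changed with the trend removed. Calls lower and higher were then 12 and 1 for hydrolases (median -0.87), 4 and 1 for delivery genes (-0.69) and 4 and 0 for membrane proteins (-0.78). They were 3 and 1 for V-ATPase subunits (-0.66), 0 and 0 for regulators (-0.07) and 1 and 1 for other cathepsins and legumain (-0.54). CTSC, CTSH and CTSS stood at 0.49, 0.83 and 0.90, inside the limit of 1 (limma adjusted p = 1.33e-05, 0.0489 and 0.0729), and were added to the text after their values were seen. Both protease inhibitors tested, CST3 and CSTB, and GLB1L, a relative of GLB1, were called lower at -1.81, -1.01 and -1.09.

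FUCA1 fell from 900 and 970 normalized counts in Control6 to 57.0 and 44.3 with pyruvate (log2 fold change -4.19, and -4.02 with the trend removed). LGMN fell from 2345 and 2474 to 377 and 344 (log2 fold change -2.74, and -2.15 with the trend removed). IDUA, the alpha-iduronidase gene, stood at -2.74. CTSF and CTSA stood at -1.88 and -1.31, the membrane genes ABCB9, TMEM175 and MCOLN1 at -2.35, -2.15 and -2.09, and ATP6V0E2 at -2.13. Among these, IDUA kept -1.35, CTSF -0.77, CTSA -0.32, ABCB9 -1.41, TMEM175 -0.91, MCOLN1 -0.95 and ATP6V0E2 -0.96 when the trend was removed.

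The V-ATPase subunits ATP6V1D and ATP6V1C1 rose by 2.45 and 2.38 on the log2 scale with pyruvate, and by 1.15 and 0.41 with the trend removed. The adaptor subunits AP3B1, AP3M1 and AP1G1, which sort membrane cargo, rose by 2.91, 2.36 and 2.01, and by 1.24, 0.53 and 0.23 with the trend removed. FNIP1 and FNIP2, partners of folliculin in nutrient signalling, rose by 2.81 and 2.30, and by 0.78 and 0.88 with the trend removed. These 7 genes had transcripts of 38.7 to 43.6% GC. TFEB, with 64.7% GC, was 190 and 170 normalized counts in Control6 and 61.0 and 36.0 with pyruvate (log2 fold change -1.92, limma adjusted p = 0.000161), and stood at -0.64 with the trend removed (limma adjusted p = 0.0994).

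**Figure D4:**
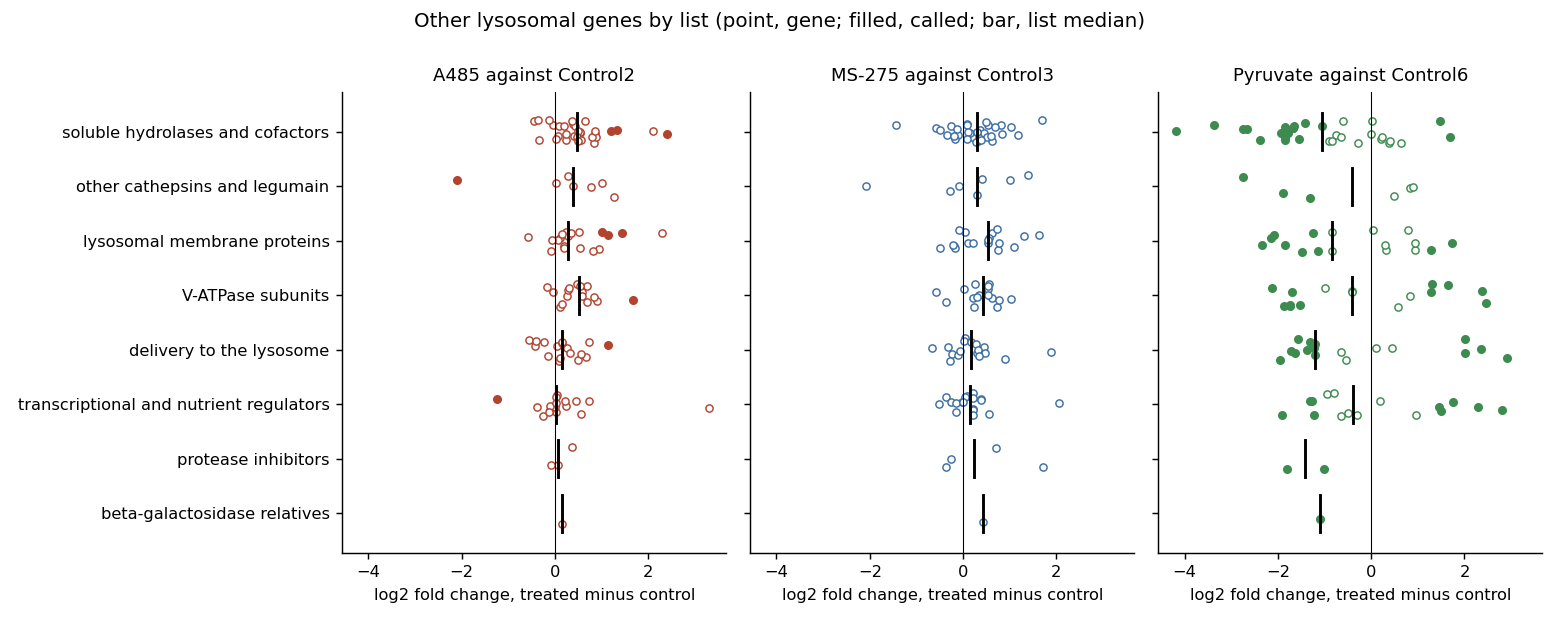
log2 fold change (treated minus control) of the other lysosomal genes in 8 lists, with a point for each gene, filled where called, and a bar at the list median. With A485 and MS-275 every list median lies above 0, and with pyruvate every list median lies below 0.

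The effects of the 3 treatments were then compared directly, as differences between log2 fold changes formed within each experiment. The A485 and MS-275 effects differed for 1 of 9 genes, against 3.81% of 15130 genes. That gene was CTSK, at 1.92 with A485 and -2.27 with MS-275, a difference of 4.19 (95% interval 2.18 to 6.20, limma adjusted p = 0.0445). The difference was 4.25 with the length and GC trend removed (limma adjusted p = 0.0187), but it was not past the threshold when any of 6 of the 8 libraries was left out, the exceptions being Control2 replicate 2 and Control3 replicate 1. For CTSB the difference was -1.85 (95% interval -3.15 to -0.54, limma adjusted p = 0.139), and for GLB1 it was 0.38 (95% interval -0.53 to 1.29).

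The A485 and pyruvate effects differed for 7 of 9 genes, against 65.4% of 11993 genes. The difference was 4.63 for CTSK, 2.03 for HEXA, 1.82 for GLB1, 1.70 for CTSD, 1.29 for LAMP1 and 1.06 for CTSZ, and it was -0.82 for LAMP2. With the trend removed, where 52.0% of all genes were past the threshold, so were CTSK (4.95), HEXA (2.04), GLB1 (1.33, limma adjusted p = 0.00330) and LAMP2 (0.77, limma adjusted p = 0.0163), LAMP2 with the opposite sign. CTSD at 0.42, LAMP1 at 0.46 and CTSZ at 0.03 were then not past it.

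The MS-275 and pyruvate effects differed for 4 of 9 genes, against 41.1% of 12005 genes. The difference was 2.05 for CTSB, 1.92 for CTSD, 1.62 for LAMP1 and 1.44 for GLB1. With the trend removed it was 1.70 for CTSB (limma adjusted p = 0.0107), 0.66 for CTSD (0.0340), 0.92 for GLB1 (0.00700) and 0.77 for LAMP1 (0.132), so that 3 of 9 were past the threshold, against 34.4% of all genes. CTSK, low with both treatments, had a difference of 0.44 (95% interval -0.82 to 1.69).

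Genes used as markers of senescence were examined beside these values. CDKN1A, which encodes p21, stood at -0.64 with A485, 0.98 with MS-275 and -1.87 with pyruvate. CDKN2A, which encodes p16, stood at 0.28, 0.82 and -3.18 in the same order. LMNB1, which encodes lamin B1 and is lost in senescence, stood at -1.12, -3.35 and 4.40. Its normalized counts were 5113 and 1326 in Control2, 1853 and 1065 in Control3 and 107 and 111 in Control6. Those counts come from experiments normalized separately, and the difference between the untreated groups was not tested. With A485 and MS-275 none of these 3 genes passed an adjusted p of 0.05 by limma, where 12.6% and 0.0% of all genes did. With pyruvate all 3 did (limma adjusted p = 1.67e-10, 3.33e-09 and 1.79e-10), where 80.9% of all genes did. The CDKN1A difference with A485 changed sign between the replicate numbers (0.03 and -1.30). Values with the length and GC trend removed are not given for these genes.

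GLB1 was last described by the genes whose values varied most like it over the 12 libraries, each experiment centred on its own mean. Among 9769 genes the highest Pearson r values were 0.995 for TECPR1, 0.990 for RHBDF1 and 0.987 for ALG12, and over the 8 libraries of the A485 and MS-275 experiments the same genes had 0.977, 0.951 and 0.942. Their pyruvate log2 fold changes, -1.48, -1.84 and -1.15 beside -1.38 for GLB1, are among the values that chose them. So are the values of the 8 libraries, and the r values over those 8 are thus no separate support. Of the other 8 lysosomal genes, r with GLB1 was 0.92 for CTSD, 0.91 for HEXA, 0.88 for LAMP1, 0.77 for CTSZ, 0.76 for CTSK, 0.60 for CTSL, 0.51 for CTSB and -0.63 for LAMP2. Without the pyruvate experiment it was 0.86 for HEXA, 0.83 for CTSZ, 0.71 for CTSD, 0.57 for CTSK, 0.41 for LAMP1, 0.36 for LAMP2, 0.11 for CTSB and 0.03 for CTSL. The libraries share depth, composition and treatment, so these values describe the 12 libraries only.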

How the data were processed

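IMR90 RNA was extracted with TRIzol and sequenced on Illumina libraries. Per the submitters' processing notes, the tools included Trim Galore 0.6.10, HISAT2 2.2.1, SAMtools 1.7, featureCounts 2.0.6 and DESeq2 1.34.0, with build hg38; the annotation and strand setting were not given in the sources used here. The deposited values are a signal: gene counts that the authors divided by library size factors, separately in each experiment. For each library the value of 1 read was chosen so that every value lay within 0.02 read of a whole number. That fit follows from the choice and is no separate check of the recovered reads. The 8 muscle libraries were not used here.

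Genes with a mean of at least 10 were tested on log2(value + 1) with limma 3.58.1 (R 4.3.3; eBayes with an intensity trend, Benjamini-Hochberg), so fold changes are on that scale. The test was checked on simulated libraries with known changes. Those libraries held no GC trend and no deviation shared by replicate number, so the check covered neither. On recovered reads in the A485 experiment, edgeR 4.0.16 called 542 genes higher and 1122 lower, and DESeq2 1.42.0 called 782 and 1543. Count tests were not run on the other experiments. Symbols were matched to GENCODE v44 for 17250 of 17554 genes (98.3%). Replicates differed by more than sampling noise in all 6 groups (chi-square per gene 4.54 to 458).

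The 9 genes and the lists were chosen with earlier results of these data known. Named besides them are, per list and comparison, up to 3 called genes with the largest change, a mean of at least 100 and no overlap (with MS-275, up to 2 with the smallest p), 3 senescence genes, overlapping or closely related genes and the 3 genes most like GLB1. A gene that this rule also named is not reported here. The alternatives changed the pseudocount, filter, scaling, variance trend, fold limit, block, tool and length and GC trend, and left out each library in turn. The trend-removed differences between effects, and the GC relations between groups of separate experiments, were added after the data had been seen.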

Additional observations from a re-analysis of the deposited data

Results flagged for a closer look

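Effects of 2 treatments on the same gene differed by a direct test (limma, Benjamini-Hochberg) in 12 cases, and no cause was tested. The A485 effect minus the MS-275 effect was 4.19 for CTSK on the log2 scale. The A485 effect minus the pyruvate effect was 1.70 for CTSD, 4.63 for CTSK, 1.06 for CTSZ, 1.82 for GLB1, 2.03 for HEXA, 1.29 for LAMP1 and -0.82 for LAMP2. The MS-275 effect minus the pyruvate effect was 2.05 for CTSB, 1.92 for CTSD, 1.44 for GLB1 and 1.62 for LAMP1. Every difference that involves pyruvate rests on the experiment in which change followed GC content. The differences for CTSK, HEXA and GLB1 between A485 and pyruvate stayed past the threshold with that trend removed, where 52.0% of all genes were. LAMP2 was then past it with the opposite sign (0.77), and CTSD, LAMP1 and CTSZ were not past it. Between MS-275 and pyruvate, CTSB, CTSD and GLB1 stayed past it, where 34.4% of all genes were, and LAMP1 did not.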

How the results depend on the processing

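With A485, the 532 genes called higher became 1677 with equal library totals, 870 with the replicate block, 339 with 1 fit over all 12 libraries and 258 without the variance trend, which gave 582 lower in place of 1135. Leaving out each of the 4 libraries in turn gave 2 to 196 higher and 114 to 648 lower. Of the 9 genes, 2 were called higher with equal totals, 1 (CTSK) with the block, with DESeq2 and with 1 fit, and 0 to 1 when a library was left out. CTSB stood at 0.0225 with quantile normalization, CTSD at -0.0134 with DESeq2 and LAMP2 at -0.0736 with the length and GC trend removed. Without 1 library, CTSD ranged from -0.49 to 0.69, LAMP1 from -0.16 to 0.35 and LAMP2 from -0.0588 to 0.42, with the lowest values without Control2 replicate 1. With MS-275, where 0 genes were called, 1 fit over 12 libraries called 220 higher and 267 lower, including CTSK. Leaving out a library gave 0 to 292 higher and 0 to 149 lower, with 292 and 98 without Control3 replicate 1, 270 and 149 without Control3 replicate 2, 10 and 2 without MS-275 replicate 1 and 0 to 1 of the 9 genes lower. GLB1 stood at -0.0806 with equal totals. Without 1 library GLB1 ranged from -0.0518 to 0.18, HEXA from -0.75 to 0.0541, CTSL from -0.28 to 0.65 and CTSZ from -0.11 to 0.44. With pyruvate, 2777 genes called lower became 1741 with equal totals and 4832 with no minimum fold change (8 of the 9). With the length and GC trend removed, 1779 were higher and 1661 lower, 0 and 2 of the 9 were called, and CTSZ (0.56) and LAMP2 (-0.84) changed sign. Without a library 0 to 1 of the 9 was higher, and LAMP2 lost its call without Control6 replicate 1 or Pyruvate replicate 2. Genes of the 9 whose A485 and MS-275 effects differed numbered 0 without the variance trend and 0 to 1 without a library. The A485 and pyruvate effects differed for 4 with the trend removed (52.0% of all genes), and the MS-275 and pyruvate effects for 4 to 7 without a library, 7 being without Control3 replicate 2. The cause of these changes was not tested where the setting itself does not show it.

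The replicate numbers are shared by the groups, but nothing says that they pair libraries. Deviations of same-numbered libraries correlated at 0.32, 0.73 and 0.002 in the A485, MS-275 and pyruvate experiments, over 2 pairs each. With the number as a block, MS-275 gave 1230 genes higher and 953 lower, with 1 of the 9 genes called higher (CTSB) and 1 lower (CTSK). CTSD, LAMP1, LAMP2 and HEXA then passed an adjusted p of 0.05 (limma, 0.0253, 0.00426, 0.00234 and 0.0470), and 39.3% of all genes did. With A485 the block gave an adjusted p under 0.05 for CTSK, HEXA, CTSB and CTSZ (limma, 0.0160, 0.0426, 0.0446 and 0.0332) and for 23.9% of all genes. The block gave differing A485 and MS-275 effects for 3 genes of the 9 (29.1% of all genes) and differing MS-275 and pyruvate effects for 8 (74.5% of all genes). With pyruvate it changed no call among the 9 genes. Over all members and settings, 438 values kept direction and call, 17 changed sign, 15 gained a call and 7 lost it. With 2 libraries a group, replication limited precision. The count tests planned for MS-275 and pyruvate were not run.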
